A study of Mus musculus with 4 samples.

Results

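Neutrophils in the middle of their maturation, marked by the specific-granule genes Ltf, Ngp and Camp, were followed in 4 single-cell RNA libraries of mouse spinal cord. A cell was taken when S100a8 and S100a9 together gave at least 20 UMIs (unique molecular identifiers, the counted molecules) and at least 1% of its UMIs, when Ngp, Ltf and Camp together gave at least 10 UMIs, when the primary-granule genes Elane, Prtn3, Mpo and Fcnb gave under 3 UMIs, and when C1qa, C1qb and C1qc gave under 0.5% of UMIs. These rules chose 1178 of 20454 kept cells. They were also 1178 of the 2203 cells that passed the S100a8 and S100a9 part and the C1q part, called the neutrophil lineage here. The cells were thus chosen by the measured UMIs of these 12 genes, whose levels are description only. The series concerns tau-driven disease in mice carrying P301S, a human tau mutation, and the place of CD8 T cells in it.

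For each group the spinal cords of 2 mice, perfused with saline, were pooled into 1 library. The 4 groups were P301S hom labelled CD8 KO (30 weeks old), P301S hom CD8 WT (33 weeks old), P301S hom CD8 WT (30 weeks old) and P301S neg, which is also CD8 WT (30 weeks old). Hom stands for homozygous and neg for negative in the labels, which give neither the promoter of the transgene nor the kind of CD8 deletion. The labelled cells were leukocytes and spinal cord cells, freed by enzymes in a heated dissociator and cleared of myelin with beads, with no sort that would enrich neutrophils. Blood, marrow and cord tissue cannot be told apart as the place these cells came from.

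Neutrophils make their granule proteins in waves as they mature in bone marrow. Azurophil (primary) granule proteases such as elastase and proteinase 3 come first, in dividing promyelocytes. Specific (secondary) granule proteins such as lactoferrin, cathelicidin and neutrophilic granule protein follow in myelocytes and metamyelocytes under C/EBP-epsilon, and gelatinase granule proteins and receptors such as Cxcr2 come last, in cells close to leaving the marrow.

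The 4 libraries held 5443, 5661, 5107 and 6433 barcodes with 43531426, 36331214, 42401255 and 42823896 UMIs, in the order of the groups above. Filters on UMIs, genes and mitochondrial share kept 5135, 4830, 4751 and 5738 cells. Between pairs of libraries 44 cell barcodes were shared, of which 0 were among the granule-marked cells. Cd8a, the gene for the CD8 alpha chain, checks the CD8 label only in T cells: it had 0 UMIs in the granule-marked cells of all 4 libraries, which allows up to 7.48, 2.52, 1.87 and 1.52 CPM (UMIs per 1000000 UMIs of the summed cells, floor of 3 counts). Over all kept cells Cd8a stood at 32.6 CPM in the library labelled CD8 KO, against 2.18, 2.12 and 1.45 CPM in the CD8 WT libraries at 33 weeks, at 30 weeks and in P301S neg. Over all kept cells its level therefore does not bear out that label. The level in T cells alone was not read, and the reason was not tested. Every difference below is one between the libraries as labelled.

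The mice also differed in sex, read from Xist and the Y-linked genes of the cells. In the library labelled CD8 KO, 0 of the granule-marked cells held female-only and 35 held male-only transcripts, against 69 and 23 at 33 weeks, 126 and 0 in 30-week P301S hom CD8 WT, and 65 and 100 in P301S neg. Sex and the CD8 label therefore cannot be told apart in the comparison of the library labelled CD8 KO with 30-week P301S hom CD8 WT. The comparisons of 30-week P301S hom CD8 WT with P301S neg and with 33 weeks were not balanced for sex either. With 1 library a group there is no replicate of any comparison and no test: intervals are exact 95% ones that cover counting error only, and a gene is called different when the ratio passes 1.5-fold.

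The marker genes Lcn2 and Ly6g were not used to choose the cells and were present as neutrophil identity requires. Set against endothelial cells they do not show the stage, and Lcn2 was also found in lineage cells with under 10 granule UMIs. Lcn2, lipocalin 2, an iron-siderophore-binding protein of specific granules, had a UMI in 100%, 100%, 99.4% and 97.8% of the chosen cells, against 9.30%, 8.92%, 11.2% and 13.2% of endothelial cells of the same libraries. Ly6g, a surface protein of mouse neutrophils, was found in 73.6%, 79.3%, 77.8% and 68.3% of the chosen cells and in 0%, 0.0833%, 0.0845% and 0.430% of endothelial cells. The endothelial cells were deeper, with median UMIs of 5339, 4733, 5489.5 and 6367 against 3336, 3230, 3651 and 3929 in the chosen cells. Both markers were therefore found in a far larger share of the chosen cells than of the deeper endothelial cells. For Lcn2 the endothelial level was above that of all cells outside the lineage in each library. In the library labelled CD8 KO it was 75.6 against 27.7 CPM, so it need not be free RNA alone.

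The neutrophil name held for fewer of the cells in P301S neg. RNA of other cell types or haemoglobin made up at least 1% of UMIs in 2 of 106 cells of the library labelled CD8 KO (1.89%), 16 of 305 at 33 weeks (5.25%), 5 of 351 in 30-week P301S hom CD8 WT (1.42%) and 119 of 416 in P301S neg (28.6%). The summed level of 8 endothelial markers in the chosen cells was 187, 343 and 403 CPM in the 3 P301S hom libraries and 2384 CPM in P301S neg. That of 10 glial and mural markers was 97.2, 85.6 and 212 CPM, against 947 CPM in P301S neg, and that of 10 erythroid markers was 149.6, 17925 and 242 CPM, against 17475 CPM. Of the endothelial list 7 of 8 markers were detected in the library labelled CD8 KO (Vwf was at 0) and 8 of 8 in the others, and of the glial and mural list 8, 9, 9 and 10 of 10. B cell markers were at 44.9, 116 and 93.4 CPM in the P301S hom libraries, with Ms4a1 and Pax5 at 0, against 361 CPM in P301S neg with 10 of 10 detected. T and NK cell markers were near 0 everywhere, at 9.97 to 15.9 CPM, and Cd3e was at 0 in all 4 libraries. The 11 microglia markers were not highest in P301S neg, at 1132, 800 and 881 CPM in the P301S hom libraries against 887 CPM there. Among endothelial cells, 0 in each of the P301S hom libraries and 17 of 2091 in P301S neg reached 10 UMIs of Ngp, Ltf and Camp.

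For that reason gene levels are given mainly for granule-rich cells, a set chosen after seeing the data: cells with at least 5% of UMIs from Ngp, Ltf and Camp, without called doublets and without the cells holding other-type RNA. There were 70, 197, 221 and 178 such cells, 666 in all, with 318206, 882298, 1211806 and 989500 UMIs. In them the microglia markers, Apoe included, still stood at 871, 541 and 626 CPM in the P301S hom libraries against 336 CPM in P301S neg. Values over all chosen cells are given where they differ.

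Ltf, Ngp and Camp lie on mouse chromosome 9 and Lcn2 on chromosome 2. Ltf codes for lactoferrin, which binds iron, and spans 9:111019271-111042767 in the GENCODE M21 annotation. Ngp codes for neutrophilic granule protein and spans 9:110419747-110423012, and Camp, the mouse cathelicidin whose C-terminal peptide kills bacteria, spans 9:109847379-109849617. The 250 bases before the RefSeq start of each gene (GRCm38.p6) are shown because these 4 genes carry the identity of the cells and were high together. They are chr9:111019042-111019291 on the plus strand for Ltf, chr9:110419558-110419807 on the plus strand for Ngp, chr9:109849457-109849706 on the minus strand for Camp and chr2:32387740-32387989 on the minus strand for Lcn2. The RefSeq starts differ from the GENCODE M21 ones, so each window overlaps the GENCODE span of its gene. That of Lcn2 (2:32384633-32388252) holds the whole Lcn2 window. Capitals mark matches on either strand to a C/EBP motif (TTGCNNAA) and to a PU.1 core (GAGGAA).
Ltf: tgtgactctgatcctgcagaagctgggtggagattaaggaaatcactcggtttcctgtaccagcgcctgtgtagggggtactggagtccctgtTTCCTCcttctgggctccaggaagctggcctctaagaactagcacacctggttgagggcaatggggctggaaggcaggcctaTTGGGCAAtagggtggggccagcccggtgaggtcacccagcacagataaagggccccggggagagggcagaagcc
Ngp: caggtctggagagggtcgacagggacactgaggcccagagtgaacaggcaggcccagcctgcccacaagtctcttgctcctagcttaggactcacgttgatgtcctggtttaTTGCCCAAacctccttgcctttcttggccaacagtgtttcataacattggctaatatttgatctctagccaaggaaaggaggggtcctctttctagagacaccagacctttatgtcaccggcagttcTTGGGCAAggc
Camp: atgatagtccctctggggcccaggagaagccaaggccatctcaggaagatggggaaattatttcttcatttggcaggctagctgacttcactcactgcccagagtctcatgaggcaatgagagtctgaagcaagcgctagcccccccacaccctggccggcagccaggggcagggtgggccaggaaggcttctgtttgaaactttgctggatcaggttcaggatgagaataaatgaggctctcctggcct
Lcn2: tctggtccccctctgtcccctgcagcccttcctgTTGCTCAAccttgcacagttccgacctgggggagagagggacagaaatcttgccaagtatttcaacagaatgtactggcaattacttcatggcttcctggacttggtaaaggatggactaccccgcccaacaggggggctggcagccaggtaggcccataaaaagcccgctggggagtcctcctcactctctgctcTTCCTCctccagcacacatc
The C/EBP letters were found once before Ltf (75 to 68 bases before the start), at 138 to 131 and at 11 to 4 bases before Ngp, and once before Lcn2 (216 to 209 bases). The PU.1 letters were found once each before Ltf and Lcn2. The Camp window held neither. Among 32851 RefSeq promoters read over the same 250 bases, 9.56% held the C/EBP letters and 23.3% the PU.1 letters, and a match describes the sequence without showing a bound site.

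The chosen cells were a smaller share of the library labelled CD8 KO than of the other libraries. They were 2.06% of kept cells there (106 of 5135, interval 1.69% to 2.49%), 6.31% at 33 weeks (305 of 4830, 5.64% to 7.04%), 7.39% in 30-week P301S hom CD8 WT (351 of 4751, 6.66% to 8.17%) and 7.25% in P301S neg (416 of 5738, 6.59% to 7.95%). The interval of the library labelled CD8 KO did not overlap the others, while those of the 2 CD8 WT libraries at 30 weeks overlapped almost wholly. Without the cells holding other-type RNA the shares were 2.03%, 6.0%, 7.29% and 5.29%, so that P301S neg then stood below 30-week P301S hom CD8 WT.

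The whole neutrophil lineage was low in the same library, at 4.19%, 12.3%, 13.1% and 13.5% of kept cells. Within the lineage the chosen cells made up 49.3% (42.4% to 56.2%), 51.4% (47.3% to 55.5%), 56.3% (52.3% to 60.3%) and 53.9% (50.3% to 57.4%), and all 4 intervals overlapped. Other blood and marrow cells differed between the libraries as well. Cells with at least 20% of UMIs from haemoglobin were 2.04%, 9.98%, 4.19% and 6.43% of kept cells, and cells with at least 3 UMIs of the B cell genes Cd79a and Cd79b were 1.52%, 3.35%, 3.12% and 6.20%. The part of blood or marrow content in the shares was not tested.

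Across the rule's lower limit the granule share changed gradually. Cells just outside, with 5 to 9 UMIs of Ngp, Ltf and Camp, numbered 9, 22, 18 and 36, with a median granule share of 0.462%, 0.391%, 0.401% and 0.247% of UMIs. Cells just inside, with 10 to 19 UMIs, numbered 13, 22, 31 and 74, with 0.765%, 0.745%, 0.826% and 0.469%. P301S neg had the most cells on both sides of the limit and the lowest granule shares there.

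Within the chosen cells the granule share ran from under 1% to well over 5% of UMIs, and in the P301S hom libraries most cells lay at the granule-rich end. Cells at 5% or more were 66.0% of the chosen cells in the library labelled CD8 KO (56.2% to 75%), 66.9% at 33 weeks (61.3% to 72.1%), 63.8% in 30-week P301S hom CD8 WT (58.5% to 68.9%) and 44.2% in P301S neg (39.4% to 49.2%). The cells holding other-type RNA lay mostly at the low end in P301S neg: 73 of its 111 cells under 1% were of that kind (65.8%), with a median of 1596 genes and 3.58% mitochondrial UMIs over the 111. Without such cells the shares at 5% or more were 67.3%, 68.2%, 64.2% and 60.3%, and their order stayed the same.

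**Figure D1:**
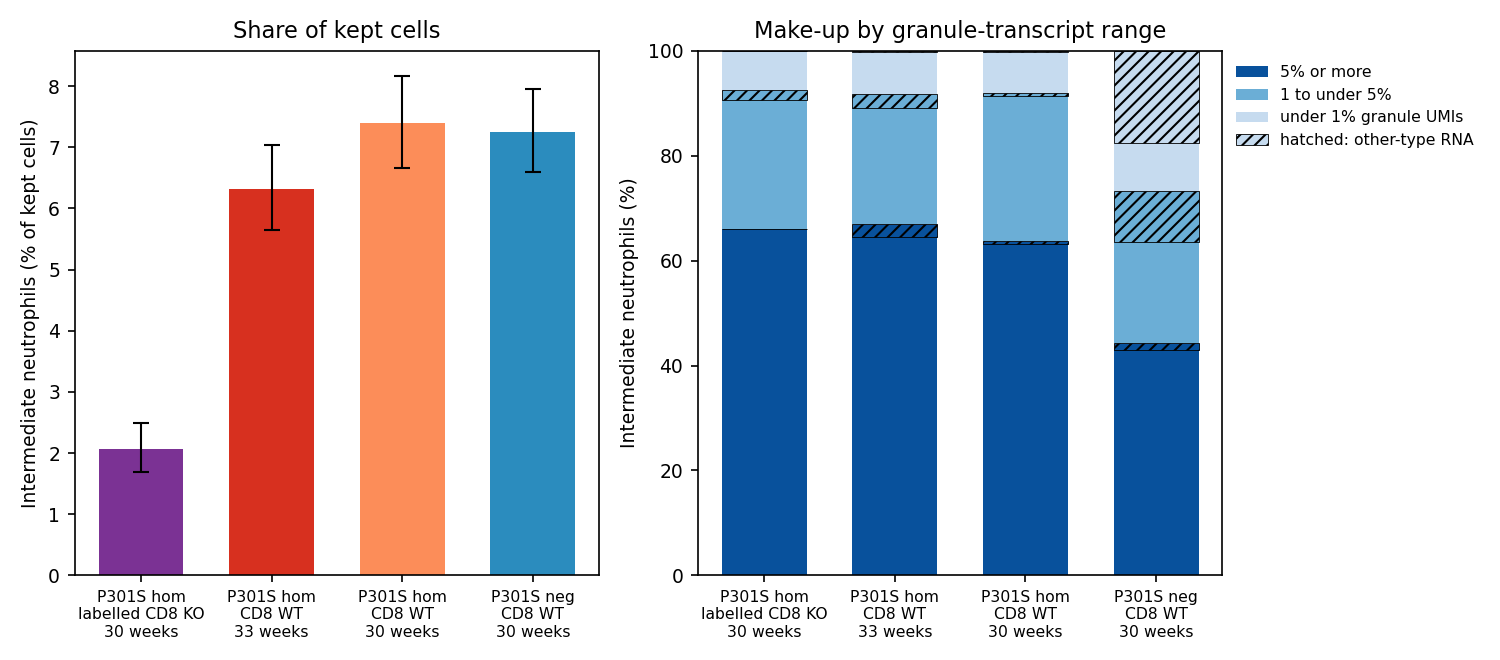
Left, the chosen neutrophils as a percent of kept cells in each library, with exact 95% binomial intervals that cover counting error only; right, their make-up by the percent of UMIs from Ngp, Ltf and Camp, with cells holding other-type RNA hatched. The library labelled CD8 KO has 2.06% of kept cells against 6.31% to 7.39% in the others, and cells at 5% or more make up 63.8% to 66.9% of the chosen cells in the P301S hom libraries against 44.2% in P301S neg.

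Along the granule share, genes of early and late neutrophil stages ran in opposite directions, described here with other-type RNA and doublets left out. Since the ranges are cut by Ngp, Ltf and Camp, genes that differ along them are description. Of 716 genes with at least 50 UMIs in each library, 46 were at least 1.5-fold higher (6.42%) and 75 at least 1.5-fold lower (10.5%) in cells at 5% or more than in cells at 1% to 5%, in all 4 libraries and with 10 CPM added to both ranges. Against cells under 1%, 142 of 1632 genes were higher (8.7%) and 199 lower (12.2%) in each of the 3 libraries that had 20 such cells, the library labelled CD8 KO having 8.

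Of 18 measured specific-granule genes, 10 were higher in the granule-rich range in all 4 libraries, 3 of them the genes that cut the ranges, and 1 (Mmp8) was lower. Lcn2 stood at 13476, 15578, 15252 and 16132 CPM in granule-rich cells, at 7861, 9603, 7930 and 7332 CPM in cells at 1% to 5%, and at 5249, 6582, 5332 and 4429 CPM under 1%. Lcn2 was still 1900 to 2940 CPM in lineage cells with under 10 granule UMIs. It therefore declined step by step, and its levels at each step did not overlap those of the next in the 4 libraries.

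Chil3, a chitinase-like secreted protein whose reads may be shared with the near copy Chil4, dropped more steeply. It was 6090, 6868, 7690 and 6392 CPM in granule-rich cells, 603, 789, 519 and 839 CPM at 1% to 5%, and 52.0, 83.7, 91.7 and 72.2 CPM under 1%. The step across 5% was 7.54-fold to 14.6-fold. Orm1, an acute-phase glycoprotein, was 258, 244, 186 and 205 CPM in granule-rich cells and at most 19.5 CPM in the range below.

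The transcription factor Cebpe, which drives the specific-granule program in myelocytes, had the same order. It was 258, 288, 233 and 285 CPM in granule-rich cells against 19.5, 36.1, 34.6 and 103 CPM at 1% to 5%. Cebpb and Mxd1, factors of later neutrophils, went the other way, with Cebpb at 1125, 1396, 1305 and 1063 CPM in granule-rich cells against 2705, 2482, 2975 and 1963 CPM. Of 13 measured transcription factors, 1 was higher (Cebpe) and 4 were lower (Cebpb, Junb, Fosl2, Mxd1) in all 4 libraries.

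Genes of later stages were low where the specific granules were high. Of 10 measured gelatinase and secretory genes, 0 were higher and 5 lower in granule-rich cells (Mmp9, Mmp8, Slpi, Retnlg, Il1r2), and of 14 mature-neutrophil genes 0 were higher and 10 lower. Mmp8, the neutrophil collagenase, was 1813, 1869, 1395 and 1723 CPM in granule-rich cells against 5468, 5109, 5115 and 4094 CPM at 1% to 5%, and 13.3 to 171 CPM in cells with primary-granule UMIs. Retnlg, a resistin-like secreted protein, was 3931, 6836, 5091 and 5150 CPM against 29887, 41538, 36896 and 21098 CPM. The levels of the ranges did not overlap for either gene.

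Receptors and cytokines of released neutrophils had the same order. Cxcr2, the receptor that draws neutrophils out of marrow and into tissue, was 132, 186, 116 and 146 CPM in granule-rich cells against 603, 596, 614 and 447 CPM at 1% to 5%, and 846 to 1147 CPM in lineage cells with under 10 granule UMIs. Il1b, interleukin 1 beta, was 399, 464, 295 and 262 CPM against 3133, 2018, 2166 and 1100 CPM. The chemokine Ccl6 was 9.43, 45.3, 56.1 and 26.3 CPM against 973, 621, 618 and 481 CPM. The step down for Ccl6 was 9.50-fold to 50.6-fold. Cstdc4, a stefin A-type protease inhibitor gene with near copies in its cluster, was 0, 13.6, 50.3 and 17.2 CPM in granule-rich cells against 2183, 955, 519 and 449 CPM in cells under 1%.

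Cybb, the gp91phox subunit of the oxidase that makes superoxide, was 2263, 2106, 1944 and 2094 CPM in granule-rich cells against 1129, 1139, 1003 and 1351 CPM at 1% to 5%. Lta4h, which makes leukotriene B4, and Ltb4r1, its receptor, were both higher in granule-rich cells, with Lta4h at 299, 367, 347 and 327 CPM against 58.4, 12, 56.2 and 92.8 CPM. Serpinb1a, an inhibitor of neutrophil serine proteases, was also higher, at 632, 678, 544 and 756 CPM against 58.4, 325, 147 and 285 CPM.

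**Figure D2:**
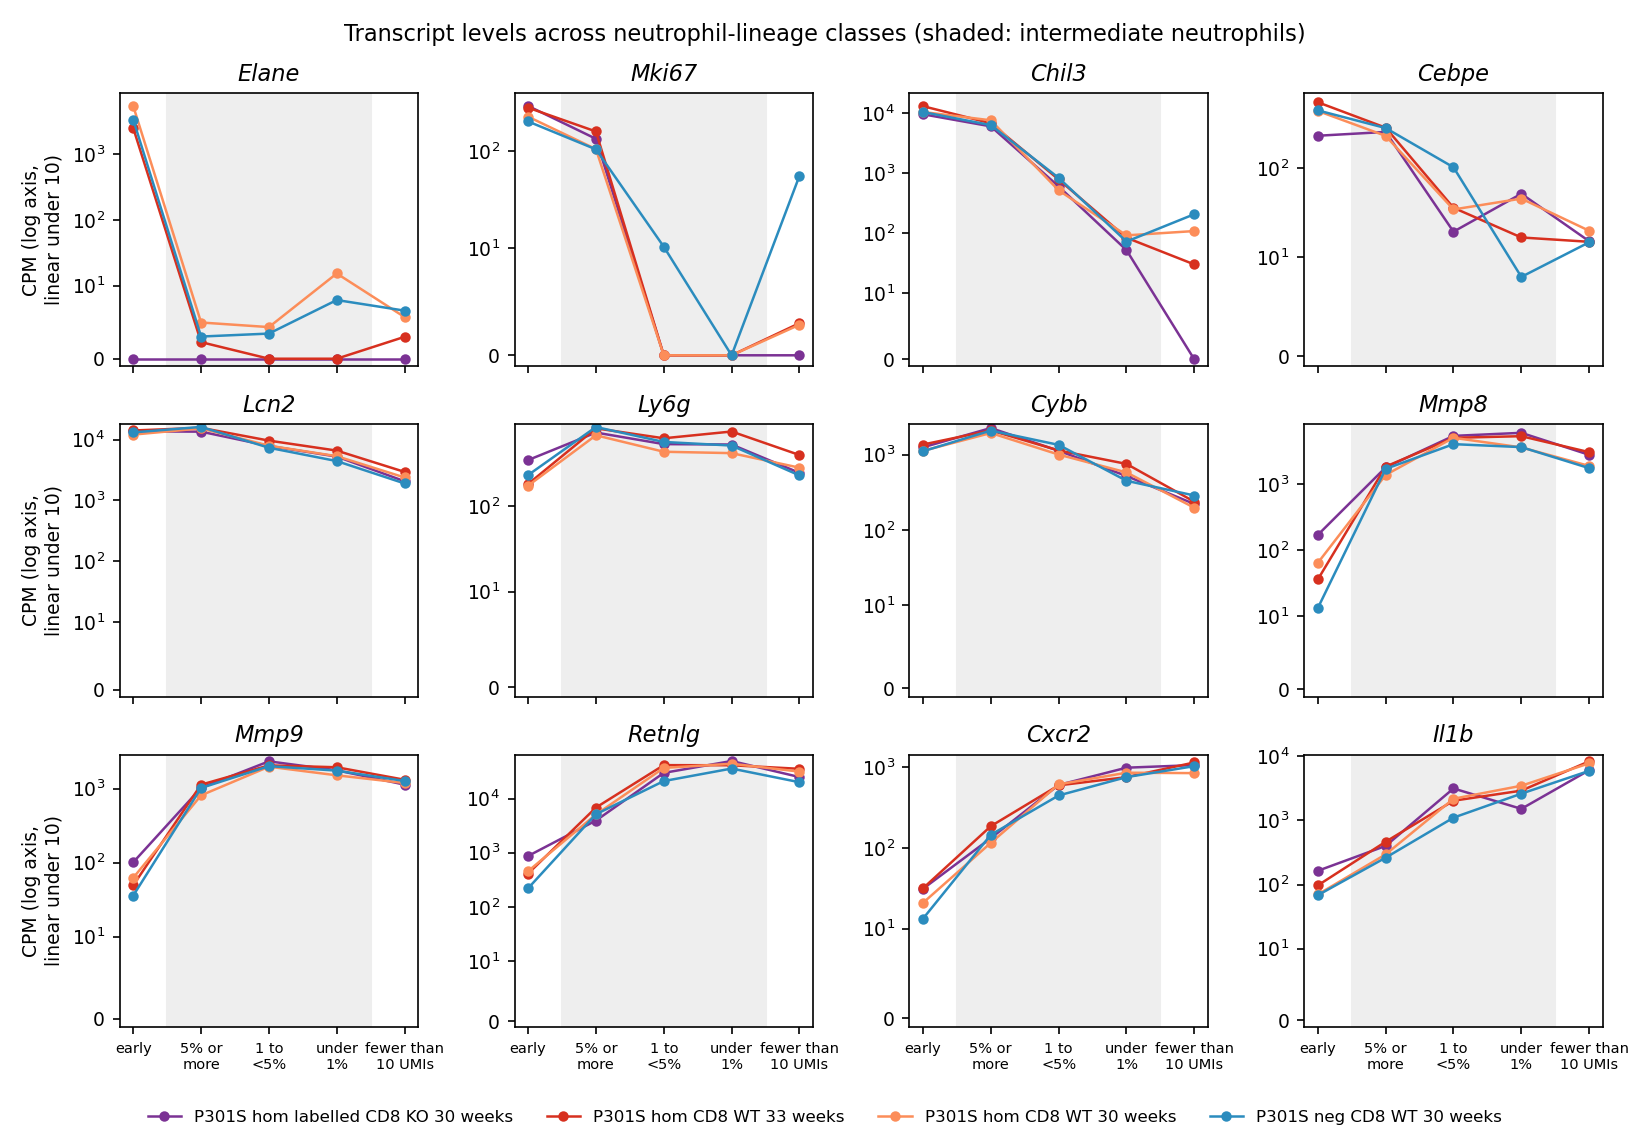
Levels of 12 genes in CPM, on a log axis that is linear under 10 CPM, from cells with primary-granule UMIs (early) through the 3 ranges of granule share (shaded) to lineage cells with under 10 granule UMIs, with a line for each library. Chil3 and Cebpe are high where Ngp, Ltf and Camp are, while Retnlg, Cxcr2 and Il1b run the other way in all 4 libraries.

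Cell-cycle genes were also compared along the granule share. Top2a, the DNA topoisomerase of dividing cells, was 192, 143, 121 and 121 CPM in granule-rich cells and had 0 UMIs at 1% to 5% in each library. With each cell thinned to 1000 UMIs, 11.8%, 12.2%, 11.8% and 10.7% of cells at 5% or more had at least 2 UMIs of 12 cycling genes, against 0%, 0%, 0% and 16.2% of cells at 1% to 5% and 0%, 0%, 0% and 25.2% of cells under 1%. Without thinning the values at 5% or more were 12.9%, 16.7%, 13.8% and 14.1%. These shares of cycling cells kept the cells holding other-type RNA and doublets, which the Top2a levels leave out. Cells with primary-granule UMIs were at 70.0%, 78.4%, 61.3% and 65.7% after thinning. Endothelial cells, not thinned, were at 0.962%, 2.50%, 1.44% and 4.64%.

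After thinning, 0 cells below 5% counted as cycling in the P301S hom libraries and some did in P301S neg. At 1% to 5%, other-type RNA was held by 2 of 28, 8 of 76 and 2 of 99 cells of the P301S hom libraries and by 41 of 121 cells of P301S neg. Their part in this share was not tested, and cycling was read from these genes alone.

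P301S hom CD8 WT was compared with P301S neg, both at 30 weeks, which by the labels asks what the tau transgene goes with. Sex was not balanced between these libraries. In granule-rich cells no specific-granule gene passed 1.5-fold, but these cells were cut by Ngp, Ltf and Camp, which are in that list. Of 19 measured specific-granule genes, 0 were past 1.5-fold higher and 0 lower, with a median log2 ratio of -0.01 against -0.03 over all 3214 genes, of which 114 were higher (3.55%) and 169 lower (5.26%, with 8.81% past 1.5-fold in either direction). Lcn2 differed by a log2 ratio of -0.08 and Ly6g by -0.32, with 666 CPM in P301S hom CD8 WT and 832 CPM in P301S neg. Over all chosen cells 4 of 19 specific-granule genes were higher (Ngp, Camp, Chil3, Abca13) and 0 lower. Their median log2 ratio was then 0.40, against -0.34 over all genes. Of 13 gelatinase and secretory genes 0 passed in either direction in granule-rich cells, with a median log2 ratio of -0.13.

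A hair-type keratin gene, Krt81 (15:101459061-101463751), had the highest ratio among genes that were not mainly expressed outside the lineage. In granule-rich cells it stood at 75.4 CPM in the library labelled CD8 KO, at 80.5 and 184 CPM in the CD8 WT libraries of 33-week and 30-week P301S hom mice, and at 49.5 CPM in P301S neg. 30-week P301S hom CD8 WT was thus the highest library. The ratio to P301S neg was 3.72-fold (2.72 to 5.17). Krt81 reads came from the neutrophil lineage: outside it the gene had 0, 0, 0.21 and 0.08 CPM. A Krt81 UMI was found in 12.3%, 8.20%, 13.4% and 6.97% of all chosen cells, against 0%, 0%, 0.0845% and 0.0956% of endothelial cells.

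Several inducible genes were higher in P301S hom CD8 WT. Cxcl2, a chemokine that calls neutrophils, was 101, 223 and 297 CPM in the 3 P301S hom libraries against 103 CPM in P301S neg. Its ratio at 30 weeks was 2.88-fold (2.31 to 3.63). In female granule-rich cells alone the log2 ratio was 0.06, which ends the call. Outside the lineage Cxcl2 was 992, 673 and 978 CPM in the P301S hom libraries and 159 CPM in P301S neg, and a UMI was found in 13.9%, 10.2%, 16.7% and 12.8% of endothelial cells, against 24.5%, 32.5%, 35.0% and 22.4% of all chosen cells. The part of RNA from outside the lineage was not tested.

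Cd69, an early activation receptor of leukocytes, was 18.9, 40.8 and 63.5 CPM in the P301S hom libraries against 26.3 CPM in P301S neg, a ratio at 30 weeks of 2.42-fold (1.53 to 3.93). Ccl6 was 56.1 CPM in 30-week P301S hom CD8 WT against 26.3 CPM in P301S neg (2.14-fold, 1.34 to 3.5), and Clec4d, a C-type lectin receptor for fungal and mycobacterial glycolipids, was 101.5 against 61.6 CPM (1.65-fold, 1.2 to 2.28). Ifi27l2a, an interferon-induced gene, was 65.2 against 32.3 CPM (2.02-fold, 1.32 to 3.14), but in female cells alone it went the other way (log2 ratio -0.28). Of 15 measured genes of inflammatory activation 3 were higher (Cxcl2, Ccl4, Nlrp3) and 0 lower, with a median log2 ratio of 0.14.

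Among 24 measured cell-cycle genes 6 were higher in P301S hom CD8 WT (Cdca8, Ccnb1, Ccnb2, Cdk1, Cenpf, Pclaf) and 0 lower, with a median log2 ratio of 0.45. Cdk1, the mitotic kinase, was 75.1 CPM against 39.4 CPM in P301S neg (1.91-fold, 1.30 to 2.85). Mki67 and Top2a did not differ, at 106 and 121 CPM in P301S hom CD8 WT and 105 and 121 CPM in P301S neg. The share of cycling cells among all chosen cells at 5% or more, 11.8% against 10.7% after thinning, differed by less than its counting error.

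By the same rule Tgfb1, Vps4b and Zfand3 had the lowest ratios in P301S hom CD8 WT, of which Zfand3 turned direction under thinning. Tgfb1, transforming growth factor beta, was 41.3 CPM against 84.9 CPM in P301S neg (2.06-fold lower, 1.43 to 2.98), and in the other P301S hom libraries it was 25.1 and 43.1 CPM. Vps4b, an ATPase of endosomal sorting, was 51.2 against 103 CPM (2.01-fold lower, 1.46 to 2.81). Hvcn1, a proton channel that supports the oxidase, was 35.5 against 64.7 CPM (1.82-fold lower, 1.22 to 2.75), but in the library labelled CD8 KO it was 69.1 CPM. Hspa5, the chaperone BiP of the endoplasmic reticulum, was 116 against 192 CPM (1.66-fold lower, 1.33 to 2.08).

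The immediate-early gene Jun was 18.9, 52.1 and 32.2 CPM in granule-rich cells of the P301S hom libraries and 160 CPM in P301S neg. The ratio at 30 weeks was 4.96-fold lower (3.48 to 7.24), but 1 cell held 65.2% of the Jun UMIs in P301S neg, against 16.7%, 52.2% and 35.9% in the P301S hom libraries. Of 17 measured genes that respond to tissue dissociation 0 were higher and 2 lower (Jun, Atf3), with a median log2 ratio of -0.22. H2-K1, a class I major histocompatibility heavy chain, was 197 CPM against 311 CPM in P301S neg (1.58-fold lower, 1.33 to 1.88), and Runx1 was 2.03-fold lower (1.22 to 3.43).

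Some ratios to P301S neg had the same direction as levels outside the lineage, where these RNAs were more abundant. Apoe, a lipid carrier made by microglia and astrocytes, was 503, 358 and 394 CPM in granule-rich cells of the P301S hom libraries against 35.4 CPM in P301S neg, and 27529, 28624 and 28987 CPM outside the lineage against 919 CPM. Spp1, osteopontin, was 107, 58.9 and 129 CPM against 46.5 CPM, and 3513, 2576 and 3745 CPM outside the lineage against 27.9 CPM. Trf, transferrin, was 139 CPM against 68.7 CPM at 30 weeks, and outside the lineage 766 CPM against 248 CPM. Their part in the ratios was not tested.

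Over all chosen cells the comparison with P301S neg looked different. Of 5386 genes 105 were higher (1.95%) and 1877 lower (34.8%, with 36.8% in either direction) in P301S hom CD8 WT, with a median log2 ratio of -0.34. The lower genes included all 14 measured heat-shock genes (median log2 ratio -1.72), 18 of 20 dissociation genes (-1.15), 13 of 15 genes of endoplasmic reticulum stress, 8 of 8 endothelial markers and 8 of 8 erythroid markers (-5.72). Hspa1a, an inducible heat-shock protein, was 10.6 CPM against 297 CPM, and the matrix and mural genes Mgp and Rgs5 were 3.73 and 4.36 CPM against 203 and 180 CPM. With the cells holding other-type RNA left out, 547 genes passed 1.5-fold in place of 1982.

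Fewer of these genes were also called in granule-rich cells. Among genes measured in both sets, 105 were lower in both, 18.9% of the calls over all chosen cells and 62.1% of those in granule-rich cells, and 25 were higher in both (35.2% and 21.9%). Krt81 (3.85-fold), Cxcl2 (3.15-fold) and Cd69 (2.91-fold) were higher over all chosen cells too. Ldhc, the testis-type lactate dehydrogenase gene, was 272 CPM against 119 CPM (2.28-fold, 1.94 to 2.68), and 318 against 204 CPM in granule-rich cells. Scaled by trimmed means of M values instead of total UMIs, the numbers over all chosen cells were 653 higher and 1151 lower, and in granule-rich cells 143 higher and 133 lower.

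**Figure D3:**
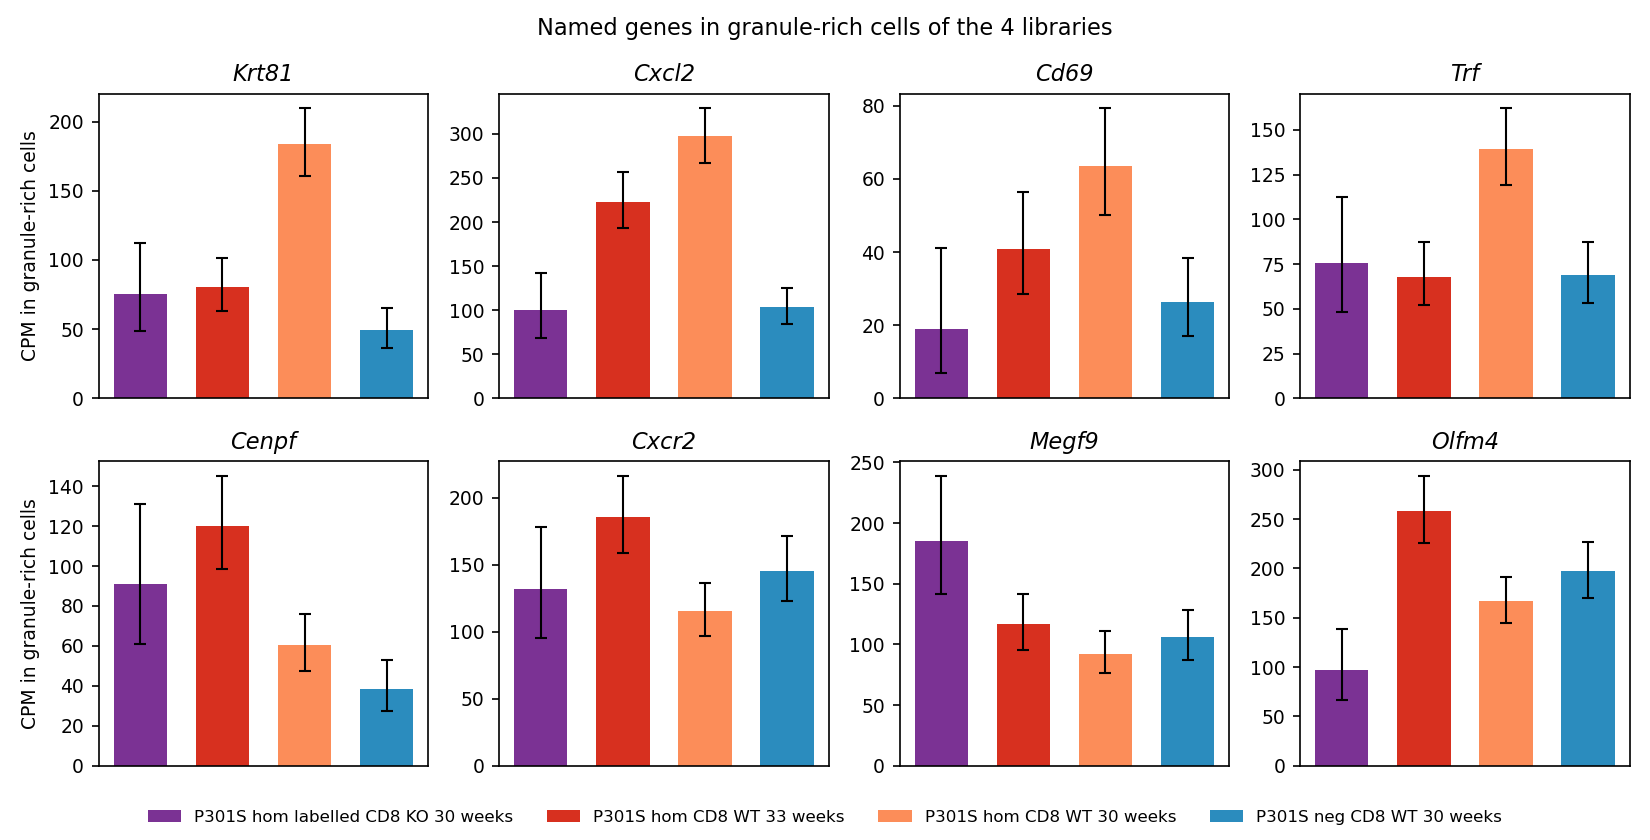
Levels of 8 named genes in granule-rich cells of the 4 libraries, in CPM on a linear axis, as bars with exact 95% Poisson intervals that cover counting error only. Krt81 is highest in 30-week P301S hom CD8 WT, at 184 CPM against 49.5 to 80.5 CPM in the other libraries, and Megf9 is highest and Olfm4 lowest in the library labelled CD8 KO.

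The library labelled CD8 KO was compared with P301S hom CD8 WT, both at 30 weeks, which by the labels asks what the loss of CD8 goes with. In granule-rich cells 1 of 19 specific-granule genes passed 1.5-fold, and among genes with at least 100 UMIs Ppp2r5c and Megf9 had the highest ratios and Cxcl2 and Krt81 the lowest. Of 2441 genes 195 were higher (7.99%) and 152 lower (6.23%, with 14.2% in either direction), with a median log2 ratio of 0.05. Of the 19 specific-granule genes 0 were higher and 1 was lower (Olfm4), with a median log2 ratio of -0.14. Ngp, Ltf and Camp, which cut these cells, are among the 19. Over all chosen cells 0 of 19 passed in either direction (median log2 ratio -0.10). Of 12 gelatinase and secretory genes 0 were higher and 1 was lower (Cr1l).

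Olfm4, olfactomedin 4, a glycoprotein made by a subset of neutrophils, was 97.4 CPM in the library labelled CD8 KO, against 258, 167 and 197 CPM in the other libraries. It was 1.71-fold lower than in 30-week P301S hom CD8 WT (1.17 to 2.58). A UMI of Olfm4 was found in 2.86%, 6.09%, 4.52% and 5.62% of granule-rich cells, and in the library labelled CD8 KO 67.7% of the Olfm4 UMIs lay in 1 of 2 such cells. Over all chosen cells Olfm4 was 182 CPM against 169 CPM, so that the call was lost.

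Of 13 measured genes of inflammatory activation 0 were higher and 2 lower (Cxcl2, Cd14) in the library labelled CD8 KO, with a median log2 ratio of 0.06, close to that over all genes. Cxcl2 was 101 CPM against 297 CPM (2.95-fold lower, 2.06 to 4.38), with 34.4% of its UMIs in the library labelled CD8 KO in 1 cell. Male cells over male cells of 33-week P301S hom CD8 WT, the comparison within 1 sex that the libraries allow, turned the direction over all chosen cells (log2 ratio 1.49, against -1.54). Ccl6 was 9.43 against 56.1 CPM, from 3 UMIs in the library labelled CD8 KO (5.95-fold lower, 1.95 to 29.6). Cd69 was 18.9 against 63.5 CPM over granule-rich cells and 4.04-fold lower over all chosen cells (1.79 to 11.3).

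Cd14, Clec4d and Srgn were also past 1.5-fold lower in the library labelled CD8 KO. Cd14, the co-receptor for bacterial lipopolysaccharide, was 229 CPM in the library labelled CD8 KO, against 301.5, 366 and 323 CPM in the others, and 1.59-fold lower than in 30-week P301S hom CD8 WT (1.24 to 2.07). Clec4d was 1.79-fold lower (1.09 to 3.13). Srgn, serglycin, the proteoglycan that packs granule contents, was 459 CPM against 685, 715 and 522 CPM, and 1.56-fold lower than at 30 weeks (1.31 to 1.87).

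Of 7 measured interferon-response genes 0 were higher and 3 lower (Isg15, Irf7, Ifi27l2a), with a median log2 ratio of -0.54. The summed level of the list hardly differed, at 4400 CPM against 4388 CPM in 30-week P301S hom CD8 WT. Ifi27l2a was 15.7 CPM against 65.2 CPM in 30-week P301S hom CD8 WT (4.15-fold lower, 1.70 to 13.1), with 54.4 CPM at 33 weeks and 32.3 CPM in P301S neg. The counting intervals of Isg15 and Irf7 included no difference. Acod1, which makes itaconate in activated myeloid cells, was 69.1 against 125 CPM (1.81-fold lower, 1.16 to 2.98), but its direction turned when cells were thinned to 1000 UMIs. Il1b was 399 CPM in the library labelled CD8 KO and 295 CPM in 30-week P301S hom CD8 WT (1.35-fold, 1.10 to 1.66), short of 1.5-fold, and 1 cell held 33.9% of its UMIs in the library labelled CD8 KO, against 8.68% in 30-week P301S hom CD8 WT.

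Genes higher in the library labelled CD8 KO included signalling and transcription genes. Their number depended on the scaling, with 195 by total UMIs and 76 by trimmed means of M values. Calls here and in the next paragraph with ratios near 1.5-fold may therefore not hold. Ppp2r5c, a regulatory subunit of protein phosphatase 2A, was 138 CPM against 61.9 CPM (2.23-fold, 1.5 to 3.28), and 80.5 and 100 CPM at 33 weeks and in P301S neg. Megf9, a transmembrane protein with EGF-like repeats, was 185 CPM against 117, 92.4 and 106 CPM in the others, and 2.01-fold above 30-week P301S hom CD8 WT (1.44 to 2.77), but between male cells of that library and of 33 weeks its log2 ratio was 0.34. Fgr, a Src-family kinase of myeloid cells, was 145 against 74.3 CPM (1.95-fold, 1.33 to 2.81). Each of these genes was lowest in 30-week P301S hom CD8 WT.

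Ets1, a transcription factor, was 163 CPM against 101 CPM in 30-week P301S hom CD8 WT (1.62-fold, 1.15 to 2.26), and Inhba, the activin beta A subunit, was 173 against 99.0 CPM (1.75-fold, 1.24 to 2.42). Hvcn1 was 69.1 against 35.5 CPM (1.95-fold, 1.11 to 3.33). Top2a was 192 against 121 CPM (1.58-fold, 1.15 to 2.14), while of 22 measured cell-cycle genes 4 were higher and 2 lower, with a median log2 ratio of 0.08. Canx, the chaperone calnexin, was 75.4 against 39.6 CPM (1.90-fold, 1.12 to 3.17).

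Krt81 and Trf were lower in the library labelled CD8 KO. Krt81 was 75.4 CPM against 184 CPM (2.44-fold lower, 1.60 to 3.89), and Trf was 75.4 against 139 CPM (1.85-fold lower, 1.2 to 2.97). Man2b1, a lysosomal mannosidase, was 50.3 against 95.7 CPM, and its direction turned under thinning. Tor1aip1, a nuclear-envelope protein, was 110 against 58.6 CPM, and its direction turned between those male cells.

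Over all chosen cells 238 of 3148 genes were higher (7.56%) and 227 lower (7.21%, with 14.8% in either direction) in the library labelled CD8 KO, with a median log2 ratio of 0.04. Upp1, uridine phosphorylase, was 12.5 CPM in the library labelled CD8 KO against 82.2, 61.6 and 34.9 CPM in the others, and 4.94-fold lower than in 30-week P301S hom CD8 WT (2.05 to 15.6). Klf5, a transcription factor, was 120 against 64.7 CPM (1.85-fold, 1.28 to 2.63). The smooth-muscle genes Acta2 and Tagln were lower, but 90.4% and 98.0% of their UMIs in 30-week P301S hom CD8 WT lay in 1 cell. Scaled by trimmed means of M values the splits were 146 higher and 333 lower over all chosen cells and 76 higher and 317 lower in granule-rich cells.

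The CD8 WT libraries of 33-week and 30-week P301S hom mice were compared to follow age, again with sex not balanced. In granule-rich cells 166 of 3106 genes were higher (5.34%) and 78 lower (2.51%, with 7.86% in either direction), with a median log2 ratio of 0.06. Of 19 specific-granule genes 1 was higher (Olfm4) and 0 lower, with a median log2 ratio of -0.02. Ngp, Ltf and Camp, which cut these cells, are among the 19. Over all chosen cells 0 of 19 passed in either direction (median log2 ratio -0.03). Of 13 gelatinase and secretory genes 0 passed in either direction, with a median log2 ratio of 0.15.

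A few genes of later neutrophils were higher at 33 weeks. Cxcr2 was 186 CPM against 116 CPM (1.61-fold, 1.28 to 2.03), with 132 CPM in the library labelled CD8 KO and 146 CPM in P301S neg. In female cells alone its log2 ratio was 0.06. Il1b was 464 against 295 CPM (1.57-fold, 1.36 to 1.82), with 399 and 262 CPM in the library labelled CD8 KO and in P301S neg. Apart from these, Olfm4 of the specific-granule list was 258 against 167 CPM (1.55-fold, 1.28 to 1.88). Its UMIs lay in few granule-rich cells of each library, as given above, which the counting interval does not cover. Of 17 measured mature-neutrophil genes 2 were higher (Cxcr2, Il1b) and 0 lower, with a median log2 ratio of 0.23.

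Dividing-cell and stress genes differed in part. Cenpf, a kinetochore protein of dividing cells, was 120 CPM at 33 weeks against 60.2 CPM at 30 weeks (1.99-fold, 1.47 to 2.73), with 91.1 CPM in the library labelled CD8 KO and 38.4 CPM in P301S neg. Mki67 was 161 against 106 CPM (1.52-fold, 1.19 to 1.95). Of 24 cell-cycle genes 2 were higher and 1 (Pcna) lower, with a median log2 ratio of 0.10. Of 12 genes of endoplasmic reticulum stress 3 were higher (Calr, Pdia6, Xbp1) and 0 lower, with Xbp1, a factor of the unfolded protein response, at 94.1 against 61.9 CPM (1.52-fold, 1.10 to 2.11).

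Glucose-handling and steroid-responsive genes were called on few UMIs. Of 16 glycolysis genes 3 were higher at 33 weeks (Slc2a1, Hk2, Pfkfb4) and 0 lower, with a median log2 ratio of 0.00, and Slc2a1, the glucose transporter GLUT1, was 40.8 against 20.6 CPM (1.98-fold, 1.15 to 3.44), with 38.9% and 40% of its UMIs at 33 and 30 weeks in 1 cell of each library. Nr3c1, the glucocorticoid receptor, was 72.5 against 42.9 CPM (1.69-fold, 1.15 to 2.49), and Cdkn1a, the cell-cycle inhibitor p21, was 51.0 against 28.1 CPM (1.82-fold, 1.14 to 2.93). Outside these groups, Mapk3, the kinase ERK1, was 199.5 against 123 CPM (1.62-fold, 1.30 to 2.03), from 176 and 149 UMIs. Def6, a guanine nucleotide exchange factor, was 117 against 63.5 CPM (1.84-fold, 1.35 to 2.50), from 103 and 77 UMIs.

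Genes lower at 33 weeks included Krt81 and Trf. Krt81 was 80.5 against 184 CPM (2.29-fold lower, 1.74 to 3.03), although without cells holding any primary-granule UMI the log2 ratio was -0.44, short of 1.5-fold. Trf was 68.0 against 139 CPM (2.05-fold lower, 1.52 to 2.80). Alyref, an mRNA export factor, was 85.0 against 131 CPM (1.54-fold lower, 1.17 to 2.06). Isg15, an interferon-induced ubiquitin-like protein, was 23.8 against 44.6 CPM (1.87-fold lower, 1.11 to 3.26).

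Over all chosen cells 138 of 3888 genes were higher (3.55%) and 178 lower (4.58%, with 8.13% in either direction) at 33 weeks, with a median log2 ratio of 0.02. Cenpf was again higher, at 89.8 against 45.4 CPM (1.98-fold, 1.45 to 2.70). Ltb, lymphotoxin beta, was 64.6 against 37.3 CPM (1.73-fold, 1.22 to 2.47), and Gpr65, a proton-sensing receptor, was 77.2 against 48.6 CPM (1.59-fold, 1.16 to 2.18). Bsg, Ctla2a, Pltp, Sparcl1 and Itm2a, genes of vessel cells among others, were lower, and each of these directions turned when doublets, cells holding other-type RNA or cells outside the granule-rich range were left out.

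**Figure D4:**
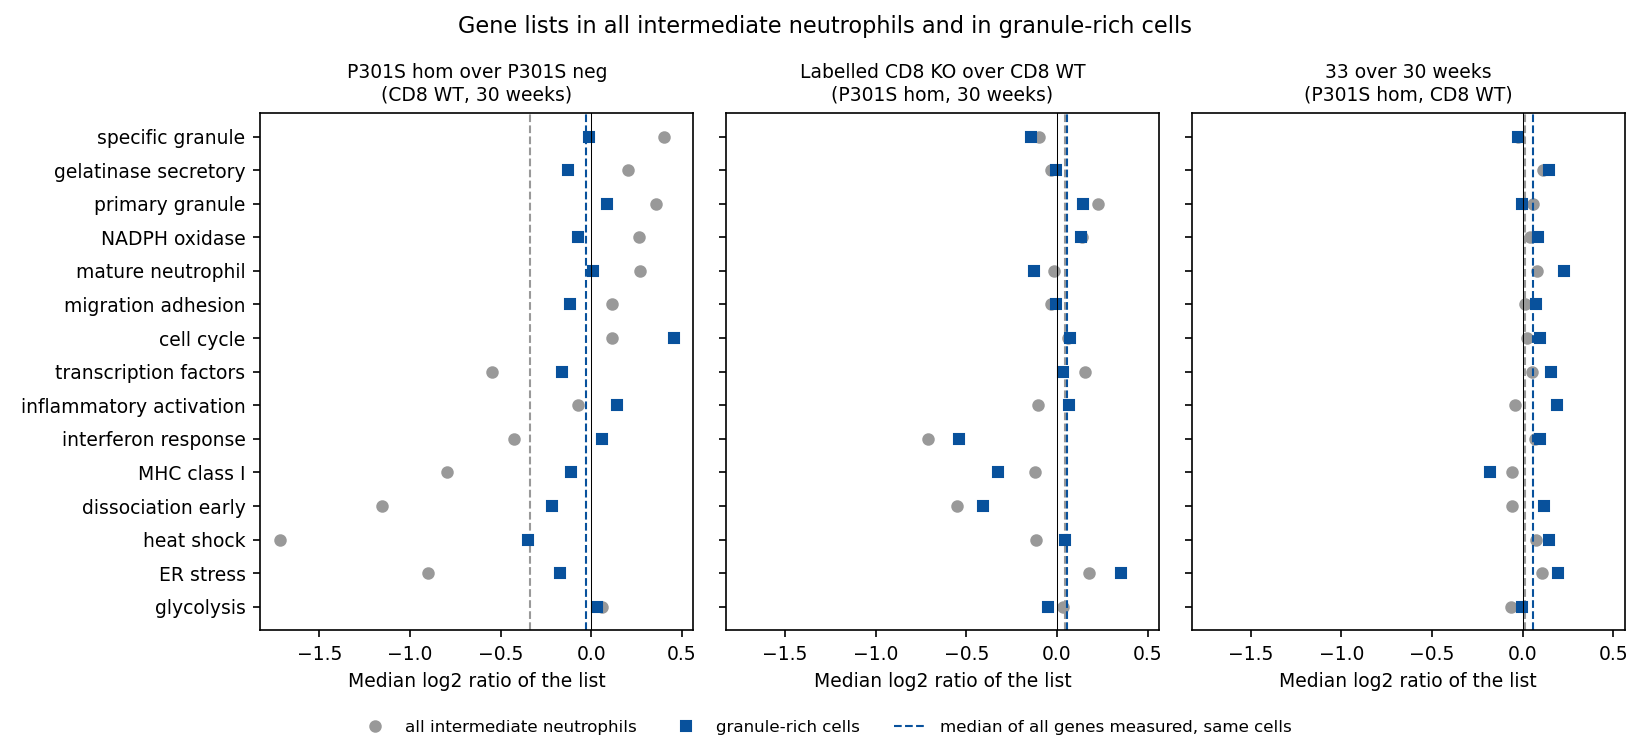
Median log2 ratio of each gene list for the 3 comparisons, over all chosen cells (grey circles) and in granule-rich cells (blue squares), with dashed lines at the median over all genes measured in the same cells. In granule-rich cells the specific-granule list lies near 0, at -0.01, -0.14 and -0.02. Ngp, Ltf and Camp, which cut these cells, are in that list, and over all chosen cells it is at 0.40, -0.10 and -0.03. In granule-rich cells the 7 measured interferon genes in the library labelled CD8 KO are at -0.54. The summed level of that list is 4400 CPM there against 4388 CPM in 30-week P301S hom CD8 WT. Cell-cycle genes in granule-rich cells of P301S hom CD8 WT over P301S neg are at 0.45.

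All 3 comparisons share the P301S hom CD8 WT library at 30 weeks, so their ratios are not independent. Krt81, Trf and Cd69 were highest in that library, which put each of them on the high side against P301S neg and on the low side in both comparisons that divide by it. Abt1, Mapk3, Def6 and Ppp2r5c were lowest in it. Abt1, an activator of basal transcription, was 72.3 and 68.0 CPM in the library labelled CD8 KO and at 33 weeks, against 34.7 CPM in 30-week P301S hom CD8 WT and 51.5 CPM in P301S neg. Whether this reflects that library or its mice was not tested.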

How the data were processed

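Spinal cord cells of 4 mouse groups were measured by 10x Genomics 3' single-cell RNA sequencing (v3.1 chemistry), 1 library of 2 pooled mice per group. The authors deposited unnormalised UMI counts, 1 value for each gene in each barcode, made with Cell Ranger 6.0.1 per the file headers. The build was mm10 per the submitters' processing notes, and the annotation is not given in the sources used here. The tables hold 32285 genes.

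Cells under 500 UMIs, under 200 genes or over 15% mitochondrial UMIs were dropped, which left 5135, 4830, 4751 and 5738 cells. The neutrophil rule was applied to raw counts. Doublets were called per library with scrublet (expected rate 6%), which marked 1, 2, 6 and 8 of the chosen cells. They were kept among all chosen cells and left out of granule-rich cells. The 1% limit for RNA of other types or haemoglobin and the granule-rich set were chosen after seeing the data.

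UMIs were summed over cells and scaled to 1000000 (CPM). Genes with at least 50 UMIs over the 2 libraries were measured, and a ratio past 1.5-fold was called. Levels have exact Poisson, shares Clopper-Pearson and ratios conditional-binomial 95% intervals. Named genes are the 8 highest and 8 lowest ratios with 10 CPM added, at 100 UMIs or more, without mitochondrial, ribosomal protein, haemoglobin, predicted, sex-linked, receptor-segment and rule genes and genes over 10 times higher outside the lineage in both libraries, and up to 6 genes per list. Genes named beside these were chosen after their values were seen. The members and the lists were chosen with earlier results of these data known. Stage ranges needed 20 cells. The calculation of ratios and intervals was tested on simulated data.

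Reads of near copies (the stefin A genes, Ly6 genes, Chil3 and Chil4, the haemoglobin alpha genes) may be split between them. Doublets were called in scanpy 1.11.5 with anndata 0.12.19, and the rest was computed with pandas 2.3.3, scipy 1.17.1, numpy 2.4.6 and matplotlib 3.10.9 in Python 3.11.15, with edgeR 4.0.16 in R 4.3.3 for trimmed-mean scaling alone. Gene positions are from GENCODE M21 and promoters from RefSeq.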

Additional observations from a re-analysis of the deposited data

How the results depend on the processing

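Each number of genes past 1.5-fold depended on the UMI minimum and on depth. For P301S hom CD8 WT over P301S neg at 30 weeks it was 1982 over all chosen cells, 3893 and 406 with minimums of 20 and 200 UMIs, 884 with granule genes at 1% of UMIs or more, 470 with cells thinned to 1000 UMIs, 547 without cells holding other-type RNA, 283 in granule-rich cells, 770 in female cells alone and 1315 with the 2 upper ranges given equal weight. In granule-rich cells it was 283, and 886, 20, 122 and 55 with 20 UMIs, 200 UMIs, 10 CPM added and thinning. For the library labelled CD8 KO against 30-week P301S hom CD8 WT it was 465 over all chosen cells, and 1383, 35, 287 and 111 under those 4 settings, 74 between male cells with 33 weeks as the divisor and 753 with the 2 upper ranges at equal weight. In granule-rich cells it was 347, and 1138, 20, 229, 76 and, between male cells, 44. For 33 over 30 weeks it was 316 over all chosen cells, and 954, 22, 109 and 102 under the 4 settings, 945 with 3 ranges and 561 with 2 ranges at equal weight. In granule-rich cells it was 244, and 848, 16, 104 and 60. The chosen cells at 5% or more from granule genes were 1.36%, 4.22%, 4.71% and 3.21% of kept cells. In P301S neg the share was 5.96% with 20 granule UMIs, 5.32% with 1% of UMIs, 6.48% thinned and 5.29% without cells holding other-type RNA. In cells of 2000 UMIs or more, 79.0%, 74.3% and 72.0% of the chosen cells of the P301S hom libraries lay at 5% or more, and 46.0% in P301S neg. Without other-type RNA and without that minimum the share in P301S neg was 60.3%. Of 1021 values of single genes under alternatives, 889 stayed within the counting interval, 112 moved and 20 reversed. Reversed log2 ratios in granule-rich cells were, thinned, Zfand3 at 0.36 (P301S hom CD8 WT over P301S neg), Man2b1 at 0.17 and Acod1 at 0.21 (library labelled CD8 KO), Ifi27l2a at -0.28 in female cells, and Tor1aip1 at -0.21 between male cells. Over all chosen cells, for the library labelled CD8 KO, Spp1 was -0.32 without other-type RNA and -0.27 in granule-rich cells, Acta2 was 0.21 without other-type RNA and Cxcl2 was 1.49 between male cells. For 33 over 30 weeks they were Bsg 0.07, Ctla2a 0.49 and Pltp 0.58 without doublets, Timp3 -0.15, Acta2 0.74 and Sparcl1 0.24 without other-type RNA, Acta2 0.84, Ctla2a 1.04, Pltp 0.02 and Itm2a 0.11 in granule-rich cells, and Timp3 -3.27 in female cells. The causes were not tested. Without the rule genes and Lcn2 in the total, the numbers higher and lower were 512 and 1245 for all chosen cells of P301S hom CD8 WT over P301S neg, 108 and 229 for 33 over 30 weeks, and 128 and 107 in granule-rich cells at 33 over 30 weeks, the last also under trimmed means. The median of all genes then moved from -0.34 to -0.04, and under trimmed means to 0.02, while for the library labelled CD8 KO trimmed means moved it from 0.04 to -0.08 over all chosen cells and from 0.05 to -0.15 in granule-rich cells. The settings on other-type RNA, granule-rich cells, the 2 upper ranges and the haemoglobin-free total were chosen after seeing the data. The 3 ranges at equal weight were not run for the library labelled CD8 KO, which had 8 cells under 1%. No paired analysis was possible because each group is 1 library, and no library could be left out.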
